A study of Mus musculus with 7 samples.

Results

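The genes described here encode 10 scaffold proteins of the skeletal muscle sarcomere: Neb, Actn2, Ldb3 and Tcap of the Z-disc and thin filament, Myom1 and Myom2 of the M-band, Mybpc1, Mybpc2 and Mybph of the thick filament, and Igfn1. Every one of the 10 had a row of its own among the 11642 rows of the expression table. They were picked for their place in the sarcomere and were also selected on measured values, namely the difference of Igfn1 between the groups and the pull-down peaks on exons. Igfn1 was put on the list with its difference known, so its values are given as a description and no p-value is read from them. Peaks lay on exons of only 2 of the 10, Mybph and Neb, and are likewise described without a test.

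The samples came from C2C12 cells, an established line of mouse myoblasts that leave the cell cycle and fuse into myotubes when serum is withdrawn. All the RNA-Seq samples were total RNA at day 2 of differentiation, 2 that had received a scrambled siRNA (si-SCR 1 and 2) and 2 that had received 1 siRNA against the long non-coding RNA lnc-SMaRT (si-SMaRT 1 and 2), so that sequence-specific effects of that siRNA cannot be told apart from the loss of its target. In a separate experiment RNA was recovered from C2C12 cells with probe set #1 against lnc-SMaRT or with probes against LacZ, which has no target in the cells, and was sequenced with the input, in 1 library each. Effective library sizes of the RNA-Seq samples lay between 11291255 and 14312935 reads. The RPKM of lnc-SMaRT was 19.1 and 15.9 in si-SCR and 2.88 and 3.65 in si-SMaRT, so the targeted RNA was lower in both libraries labelled si-SMaRT. The si-SMaRT 2 sample stood apart from si-SMaRT 1 along the GC content of genes, as given below beside the values that move with it.

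Nebulin (Neb) runs along the thin filament and is anchored in the Z-disc, where the α-actinins (Actn2 here) cross-link thin filaments of neighbouring sarcomeres. Ldb3, also called ZASP or Cypher, binds α-actinin, and telethonin (Tcap) joins the ends of titin at the Z-disc. The myomesins (Myom1, Myom2) cross-link thick filaments at the M-band. The myosin-binding proteins C (Mybpc1 of slow muscle, Mybpc2 of fast muscle) bind myosin in the thick filament and modulate its motors, and Mybph is a shorter relative of them. Igfn1 is a skeletal muscle protein of immunoglobulin and fibronectin domains found at the Z-disc.

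Among the scaffold genes only Mybph held lnc-SMaRT peaks on its exons, and such peaks were part of how the genes were chosen. Of 345 peaks in the lnc-SMaRT list, 7 lay on exons of Mybph on its strand. Of the protein-coding genes, only Ttn with 200 and Vps45 with 10 had more. The Mybph gene (ENSMUSG00000042451.12) is on chromosome 1 from 134193448 to 134201232 on the plus strand of GRCm38, with 10 exons. The 7 peaks touched 7 of those exons and together covered 949 of 2329 exonic bases, or 40.7%. They spanned 2200 bases in all, so the remainder under them was not exonic. The p-values the peak caller gave the 7 peaks ran from 1.47e-08 to 0.00961. None of the 7 overlapped a peak of the LacZ list. How many of the other lnc-SMaRT peaks did so was not counted, so nothing is read from this. The peak with the lowest p, at chr1:134193401-134193600, held 97 coding bases and 56 bases of untranslated exon in exon 1. The next lowest p-value from the peak caller, 1.06e-07, belonged to a peak over the last exon, at chr1:134200201-134200600, with 14 coding bases and 192 bases of untranslated exon. The one after it, with a p-value of 1.40e-06 from the peak caller, was at chr1:134194401-134194600 and held 24 coding bases of exon 3, while the remainder of that bin was not exonic.

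The coding bases under the peak with the lowest p are shown because they are the stretch of Mybph with the strongest call. They run from chr1:134193504-134193600 on the plus strand, begin with the start codon of the gene and have a GC content of 56.7%.
Mybph exon 1, coding: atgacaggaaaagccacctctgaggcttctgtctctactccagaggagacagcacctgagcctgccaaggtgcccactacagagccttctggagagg

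A probe can recover an RNA by pairing with it directly. The longest unbroken complement of each probe of set #1 was therefore searched under each Mybph peak, on the strand of the gene. Each peak was searched over its whole width, bases outside exons included. The longest was 10 bases, in the last exon at chr1:134200539-134200558. The second longest was 9 bases, at chr1:134197746-134197764 in the peak over exon 6. The best probe was complementary to 6 or 7 bases in each of the other 5 peaks. Not all of these matches lay in exons. That in the first peak, at chr1:134193415-134193431, lay before the gene start at 134193448. Both probes and both sites are shown with the complementary bases in capitals.
Probe 1 of set #1: tagctagCTCCAGTGACtag
Mybph site for probe 1: aaaatGTCACTGGAGacagg
Probe 4 of set #1: tgggtaaagtGCTTGATGCa
Mybph site for probe 4: gagcaGCATCAAGCtactg
Over all 345 lnc-SMaRT peaks the longest stretch for any probe of the set had a median of 7 bases and a range of 5 to 20. Over the 4 peaks on exons of lnc-SMaRT itself the median was 20 and the range 7 to 20. The Mybph peaks, at 6 to 10 bases, lay near the median of the list. They lay below the median of the target RNA but overlapped its range.

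Neb showed the opposite arrangement. None of the lnc-SMaRT peaks lay on its exons, and 6 of 336 LacZ peaks did. Neb (ENSMUSG00000026950.17) is on chromosome 2 from 52136647 to 52378474 on the minus strand, with 26582 exonic bases. The 6 peaks were 200 bases wide each, covered 339 exonic bases or 1.28% of the exonic length, and had p-values from 6.13e-05 to 0.00994. All 6 touched coding exons between exon 107 and exon 140 of 157 in transcript ENSMUST00000036934.11, by 3 to 105 bases each. LacZ probes were complementary to 5 to 7 bases under the whole width of these peaks, introns included, against a median of 7 over all LacZ peaks.

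**Figure D1:**
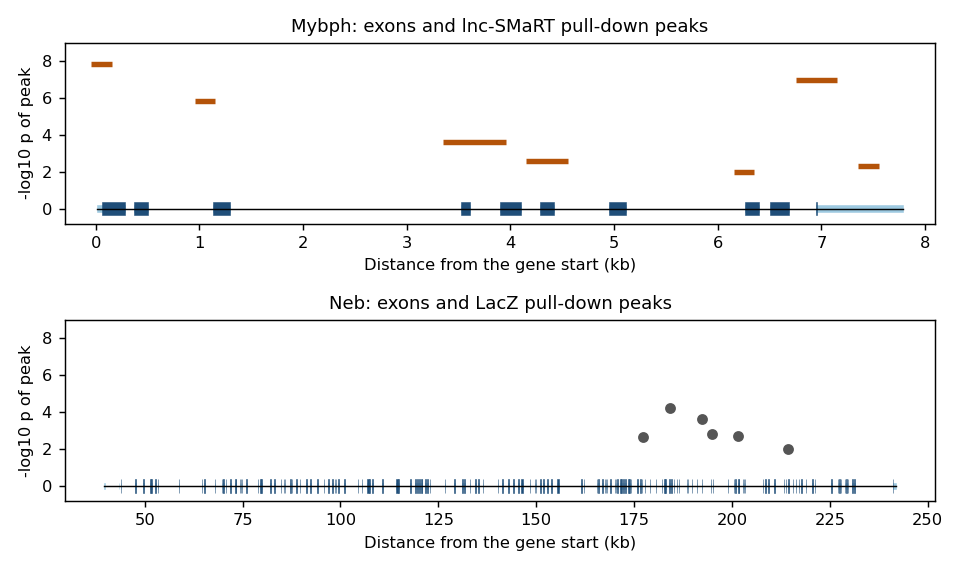
Exons and pull-down peaks of Mybph (upper panel) and Neb (lower panel), by distance from the gene start in kb. Dark blocks are coding exons, light blocks untranslated exons, orange bars the lnc-SMaRT peaks and grey points the centres of the LacZ peaks, placed at -log10 of the peak p-value. The 7 Mybph peaks run from the first exon to the last, and the 6 Neb peaks lie in the later part of the gene.

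The other 8 scaffold genes had no peak in either list. How often a gene held a peak moved with its level in the si-SCR samples. Among single-gene rows, an lnc-SMaRT peak lay on 25 of 484 genes with a control RPKM of at least 100 (5.17%), on 0.326% of those from 10 to 100 and on 0.219% of those under 10. Mybph was in the highest class and Neb in the middle one. The corresponding shares for LacZ peaks were 1.03%, 0.462% and 0.169%. With 1 library per pull-down there is no replicate check on any peak. The part that level plays in the peaks on Mybph was not tested.

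Runs that could fold into a G-quadruplex were searched because lnc-SMaRT is known to pair with such an element in the mRNA of Mlx-γ. A run was taken as 4 blocks of GGG or longer with 1 to 7 bases between blocks, on the RNA strand, in any protein-coding transcript. It occurred in 2 of the 10 scaffold genes, against 2504 of 9681 protein-coding genes tested (25.9%). Igfn1 held 4 such runs, all in the coding part of exon 15 of 27 in transcript ENSMUST00000166193.8, on the minus strand of chromosome 1 between 135967820 and 135970568. Myom2 held 1, in its last exon in the 3′ UTR, at chr8:15133297-15133321 on the plus strand. Mybph, which carried the peaks, held none. The blocks of G are in capitals.
Igfn1 chr1:135970546-135970568: GGGagcaGGGGcaGGGcagaGGG
Igfn1 chr1:135969798-135969817: GGGaGGGaaGGGagcgtGGG
Igfn1 chr1:135968573-135968598: GGGGccctGGGGctgtGGGttcaGGG
Igfn1 chr1:135967820-135967849: GGGttccaaGGGtctctcaGGGacagaGGG
Myom2 3′ UTR: GGGGagtGGGGGGGGGGctgcaGGG

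Promoters from RefSeq (GRCm38.p6), from 250 bases before to 50 after each gene start, were given for 7 of the 10 genes as 8 promoters, with 2 for Ldb3. Neb, Tcap and Myom2 were not matched. The E-box CANNTG, the element bound by MyoD and related factors, was in 6 of the 8 and in 72.3% of 32851 promoters. Its form CAGCTG, a subset of the same matches, was in 3 of the 8, those of Mybph, Igfn1 and Mybpc1, and in 16.3% of all. The CArG box, the element bound by serum response factor, was in both Ldb3 promoters and that of Myom1, and in 1.63% of all. Both Ldb3 matches are the same bases, since the 2 promoters overlap. The MEF2 site was in none of the 8 and in 0.557% of all promoters. Both strands were searched. The sites are shown with the motif in capitals because the first 3 are shared by the most abundant gene of the set and by the gene with the largest difference.
Mybph, 79 bases before the start: gacctgaccccaCAGCTGggaatggtttgc
Igfn1, 193 bases before the start: catagccaactgCAGCTGgctcagcctggg
Mybpc1, 87 bases before the start: gagcacgaggcaCAGCTGaatttagaaagt
Ldb3, 109 or 35 bases before the start: tagggttacagtCCATTTATGGgcgcagca
Myom1, 99 bases before the start: ctgccttcctggCCATAAAAGGctggctgt

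RPKM is scaled by gene length, so the levels of different genes can be set side by side within a sample. Mybph stood far above the rest, at 474 and 600 RPKM in si-SCR and 451 and 285 in si-SMaRT. Its si-SCR mean of 537 ± 88.8 (SD, n = 2) was above that of 99.1% of all rows, and 6.76 times that of Neb, the next gene. Mybph alone made up between 64.7% and 70.7% of the summed RPKM of the 10 genes in each sample. Mybph, Myom2 and Neb together made up between 87.1% and 89.1%.

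In si-SCR the order went on with Neb and Myom2, whose values overlapped, then Myom1, Ldb3, Actn2, Igfn1, Mybpc1, Tcap and Mybpc2. Actn2 and Igfn1 overlapped too, and each other gene lay above the next in both samples. The genes fell into a group of 5 with si-SCR means of 28.3 RPKM or more and a group of 5 with means of 4.82 RPKM or less, with a gap of 5.88 times between Ldb3 and Actn2. In si-SMaRT the same 5 genes led, but Ldb3 and Myom1 now overlapped, and Igfn1 had dropped from the seventh to the ninth place. Mybpc1, Actn2 and Tcap overlapped their neighbours there.

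**Figure D2:**
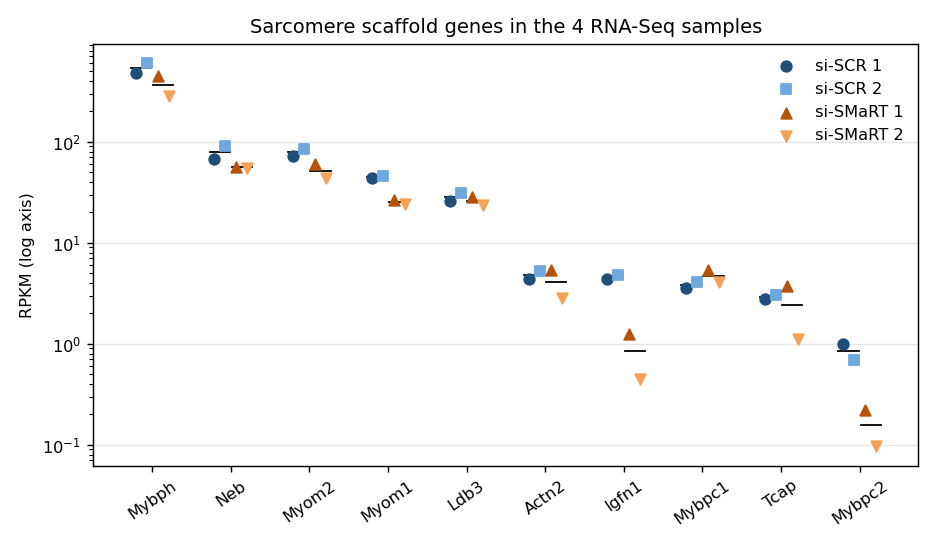
RPKM of the 10 scaffold genes on a log axis in each of the 4 RNA-Seq samples, ordered by the si-SCR mean. Points are samples and short black lines are the means of the 2 samples of each group. Igfn1 and Mybpc2 have both si-SMaRT points well under both si-SCR points, while the points of Ldb3, Actn2, Mybpc1 and Tcap overlap.

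The whole set was compared between the groups with limma on log2(RPKM + 0.1), a scale that understates the change of low genes. Of 11086 rows tested, 56 passed a Benjamini-Hochberg adjusted p of 0.05 (0.505%), 36 of them lower in si-SMaRT (0.325%). Of the 10 scaffold genes, all of which passed the filter on low values, 2 were past this threshold, both lower. They were Mybpc2 and Igfn1, and for Igfn1, chosen for its difference, this is no test. For 6 of the 10 both si-SMaRT values were under the lower si-SCR value, Neb, Myom1, Myom2, Mybpc2, Mybph and Igfn1, and the same held for 20.4% of all rows tested. The log2 fold change was negative for 9 of the 10 and for 47.7% of all rows, with a median of -0.53 over the 10 genes beside 0.02 over all rows. As Igfn1 was chosen for this contrast, nothing is read from these counts. The 2 si-SMaRT samples are separate cell populations by the study's methods. The p-values set the difference of the group means against the spread within the groups of 2, moderated over all rows tested. An exact permutation test of a single gene cannot go below 0.333 with 2 samples against 2.

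Igfn1 had the largest difference of the set. Its RPKM was 4.38 and 4.83 in si-SCR and 1.25 and 0.450 in si-SMaRT, from 499, 614, 127 and 58 reads. Both si-SMaRT samples were far under both controls, and si-SMaRT 2 was the lower of them. On the log2 scale the difference was -2.45, with a standard error of 0.38, and the si-SCR mean was 5.42 times the si-SMaRT mean. Without si-SMaRT replicate 2 the log2 fold change was -1.80, and without si-SMaRT replicate 1 it was -3.09.

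Mybpc2, the fast-muscle form of myosin-binding protein C, was past the threshold and had the lowest level of the set. Its RPKM was 1.00 and 0.683 in si-SCR and 0.220 and 0.0964 in si-SMaRT, from only 46, 35, 9 and 5 reads, the fewest that give a whole gene length. The groups did not overlap, and the si-SCR mean was 5.33 times the si-SMaRT mean. The fall was -1.89 on the log2 scale with a standard error of 0.39 (limma, Benjamini-Hochberg adjusted p = 0.040). This call was lost with a pseudocount of 1 (adjusted p = 0.069), under quantile normalization (adjusted p = 0.096) and without si-SCR replicate 1 (adjusted p = 0.831) or si-SCR replicate 2 (adjusted p = 0.112).

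The slow form Mybpc1 was the one gene of the set with a positive log2 fold change. It had 3.60 and 4.11 RPKM in si-SCR and 5.34 and 4.07 in si-SMaRT, and the groups overlapped. The difference of 0.27 had a 95% interval from -0.34 to 0.88 on the log2 scale (limma, Benjamini-Hochberg adjusted p = 0.850), and it was 0.46 without si-SMaRT replicate 2 and 0.08 without si-SMaRT replicate 1. The ratio of Mybpc2 to Mybpc1 was 0.279 and 0.166 in si-SCR and 0.0412 and 0.0237 in si-SMaRT, so the fast form was the lesser in every sample and more so in both si-SMaRT samples.

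Mybph did not pass the threshold with all 4 samples. The groups did not overlap, but si-SMaRT 1 at 451 RPKM lay close under si-SCR 1 at 474 RPKM. Its difference was -0.57 on the log2 scale, with a 95% interval from -1.21 to 0.07 (limma, Benjamini-Hochberg adjusted p = 0.605). Its value rested on the si-SMaRT samples, with -0.90 without si-SMaRT replicate 1 and -0.24 without si-SMaRT replicate 2. The ratio of Mybph to Mybpc1 was 132 and 146 in si-SCR and 84.4 and 70.0 in si-SMaRT, without overlap.

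The myomesins of the M-band were both lower on average in si-SMaRT. Myom1 had 44.1 and 46.2 RPKM in si-SCR and 26.7 and 24.4 in si-SMaRT, with both groups tight and apart. The log2 fold change was -0.82 with a 95% interval from -1.37 to -0.27, and the gene did not pass (limma, Benjamini-Hochberg adjusted p = 0.243). Myom1 did pass with the GC trend of every sample removed, where 2.98% of 10478 rows were called lower (limma, Benjamini-Hochberg adjusted p = 0.015). Its log2 fold change was -0.88 without si-SMaRT replicate 1 and -0.76 without si-SMaRT replicate 2.

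Myom2 had 72.6 and 84.3 RPKM in si-SCR and 60.3 and 43.3 in si-SMaRT, again without overlap. Its log2 fold change was -0.61 with a 95% interval from -1.19 to -0.04 (limma, Benjamini-Hochberg adjusted p = 0.502). It was -0.85 without si-SMaRT replicate 1 and -0.37 without si-SMaRT replicate 2. The ratio of Myom2 to Myom1 ran from 1.65 to 1.82 in si-SCR and from 1.78 to 2.26 in si-SMaRT, and overlapped. Myom3, a myomesin that was not one of the 10, had 22.7 and 29.8 RPKM in si-SCR and 22.5 and 12.99 in si-SMaRT, below both in every sample (adjusted p = 0.577).

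Neb had 67.5 and 91.6 RPKM in si-SCR and 56.0 and 55.6 in si-SMaRT. It gave the most reads of the set, at least 16670 in each sample, so that counting error was small beside the difference between the controls. The log2 fold change was -0.49 with a 95% interval from -1.06 to 0.07 (limma, Benjamini-Hochberg adjusted p = 0.612). It was -0.71 without si-SCR replicate 1 and -0.27 without si-SCR replicate 2, and passed in neither case. Nebl, the nebulin relative of heart and non-muscle cells, had at most 0.149 RPKM in any sample and was not tested.

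Actn2 and Tcap depended on a single sample. Actn2 had 4.41 and 5.23 RPKM in si-SCR and 5.37 and 2.82 in si-SMaRT, so that si-SMaRT 1 was the highest and si-SMaRT 2 the lowest of the 4. Tcap had 2.75 and 3.06 RPKM in si-SCR and 3.74 and 1.11 in si-SMaRT, from 33, 41, 40 and 15 reads, with the same order. Their log2 fold changes of -0.29 (limma, Benjamini-Hochberg adjusted p = 0.857) and -0.48 (adjusted p = 0.806) turned to 0.16 and 0.35 without si-SMaRT replicate 2. Without si-SMaRT replicate 1 they were -0.75 and -1.32.

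Ldb3 was the steadiest gene of the set. It had 25.8 and 30.8 RPKM in si-SCR and 28.3 and 23.9 in si-SMaRT, and the groups overlapped. The log2 fold change was -0.12 with a 95% interval from -0.68 to 0.44 (limma, Benjamini-Hochberg adjusted p = 0.938), and it was close to 0 without si-SCR replicate 2 or si-SMaRT replicate 2. The ratio of Ldb3 to Actn2 was 5.86 and 5.90 in the controls but 5.26 and 8.48 in si-SMaRT, since Actn2 differed between those samples.

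Most α-actinin mRNA of these cells was not Actn2. Actn3, the α-actinin of fast fibres, had 444 and 485 RPKM in si-SCR and 371 and 243 in si-SMaRT, between 69.2 and 101 times the level of Actn2 in each sample (limma, Benjamini-Hochberg adjusted p = 0.541). The non-muscle form Actn1 had 25.4 and 33.7 RPKM in si-SCR and 49.1 and 41.8 in si-SMaRT (log2 fold change 0.63, limma, Benjamini-Hochberg adjusted p = 0.472), and the values of Actn4, another non-muscle form, overlapped between the groups (adjusted p = 0.897). The ratio of Actn2 to Actn1 was 0.174 and 0.155 in si-SCR and 0.109 and 0.0673 in si-SMaRT. That of Actn3 to Actn1, computed after its values were seen, was 17.5 and 14.4 against 7.56 and 5.82. The sarcomeric forms thus stood lower against Actn1 in both si-SMaRT samples, with no overlap in either ratio. Igfn1 and Actn2 were at nearly the same level in si-SCR, with ratios of 0.995 and 0.924, whereas the ratios in si-SMaRT were 0.233 and 0.160.

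**Figure D3:**
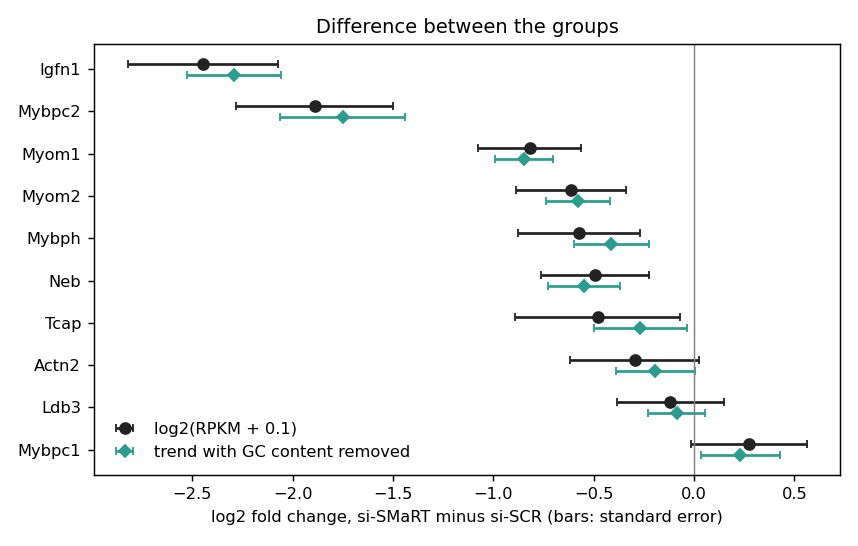
Log2 fold change of the 10 scaffold genes, si-SMaRT minus si-SCR, with the standard error from limma as bars. Black circles are log2(RPKM + 0.1) as deposited and green diamonds the same with the GC trend of every sample removed. Igfn1 (-2.45) and Mybpc2 (-1.89) lie apart from the other 8, which run from -0.82 to 0.27.

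The GC content of the exons of a gene moved with the difference between the 2 si-SMaRT samples. The 10 genes spanned 46.4% in Neb to 61.3% in Tcap, the latter above 98.4% of the rows tested. The difference of si-SMaRT 2 from si-SMaRT 1 was -0.01 for Neb, -0.13 for Myom1, -0.66 for Mybph, -1.29 for Igfn1 and -1.67 for Tcap on the log2 scale. Across the 10 genes Pearson's r with GC content was -0.90, and across 10478 rows with a gene model it was -0.79, a description across genes of the same libraries. The difference of si-SCR 2 from si-SCR 1 had r = -0.24 across the 10 genes but 0.33 across the 10478 rows, so the controls differed along GC content as well, in the other direction. With the trend removed, the log2 fold change of Igfn1 was -2.29, that of Mybpc2 was -1.75 (limma, Benjamini-Hochberg adjusted p = 0.018), that of Mybph was -0.41 and that of Tcap was -0.27, and the order of the 3 lowest genes was as before.

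**Figure D4:**
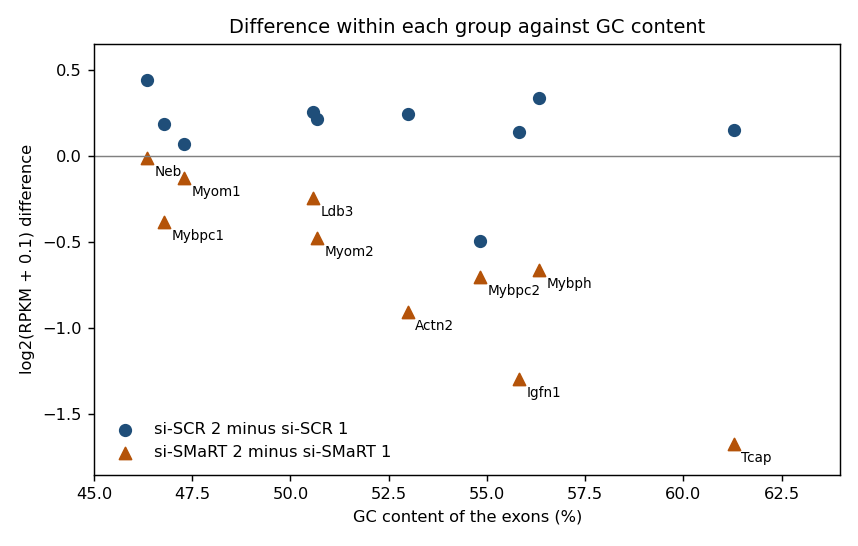
Difference within each group, in log2(RPKM + 0.1), against the GC content of the exons in percent. Orange triangles are si-SMaRT 2 minus si-SMaRT 1, labelled by gene, and blue circles si-SCR 2 minus si-SCR 1. The triangles go down from Neb (-0.01) to Tcap (-1.67), whereas 9 of the 10 circles lie above 0 and that of Mybpc2 lies below.

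By a measure of likeness over the 4 samples, the root mean square difference of centred log2(RPKM + 0.1), the rows nearest to Igfn1 were Slc44a4 (0.29), Ctrb1 (0.32) and G430095P16Rik (0.32). Slc44a4 had 7.42, 6.39, 1.96 and 1.14 RPKM in the order si-SCR 1 and 2, si-SMaRT 1 and 2. The rows nearest to Mybph were Ehbp1l1 (0.031), Mypn (0.032) and Acot8 (0.035). The measure is not scaled by a gene's own variation, so the distances for Igfn1 and Mybph cannot be compared. Mypn encodes myopalladin, a Z-disc protein, and was at 1.96 and 2.40 RPKM in si-SCR.

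Other genes of the sarcomere and its assembly were taken from 3 lists. Over all rows tested, 1008 of 11086 (9.09%) had an unadjusted limma p under 0.05, the background for the unadjusted counts given with each list. Among the Z-disc and I-band partners 22 of 26 were tested, 1 of them past the threshold and 8 at an unadjusted limma p under 0.05, and the median log2 fold change was -0.08. That gene was Csrp3, the muscle LIM protein, which fell from 23.1 and 19.3 RPKM to 9.01 and 7.76, a log2 fold change of -1.32 with a standard error of 0.27 (limma, Benjamini-Hochberg adjusted p = 0.036). The next lowest (-1.12) was a row that joins Ankrd23, a titin-binding ankyrin repeat protein, with Ankrd39, so its value is not of Ankrd23 alone. The highest were the co-chaperone Bag3 (0.65) and Fhl1 (0.60), and none of these passed the threshold. Csrp3 did not pass under quantile normalization, without the variance trend, with the replicate block or without either si-SCR sample.

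Of the thin filament and nebulin partners 10 of 14 were tested and none passed, with a median of -0.16. The lowest were Klhl41, which stabilises nebulin (-0.86), and Lmod3, which extends the thin filament (-0.74), and the highest were Lasp1 (0.57) and Fhod3 (0.01). Unadjusted, 2 of these 10 had a limma p under 0.05. Of the M-band, thick filament and assembly list 13 of 16 were tested and none passed, with a median of -0.58 and 5 at an unadjusted limma p under 0.05. The lowest there were the muscle creatine kinase Ckm (-1.25) and the microtubule-associated Trim54 (-0.98), and the highest Fhl2 (0.48) and the myosin chaperone Hsp90aa1 (0.29). Mybpc3, the heart form of myosin-binding protein C, and Mybphl had no row.

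The non-muscle relatives went the other way without a call. Of 10 genes 9 were tested, all 9 had a positive log2 fold change, with a median of 0.31, none passed and 1 had an unadjusted limma p under 0.05, beside 9.09% of all rows. Actn1 (0.63) was the highest, and Flna (0.15) and Tln1 (0.16) were the lowest.

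**Figure D5:**
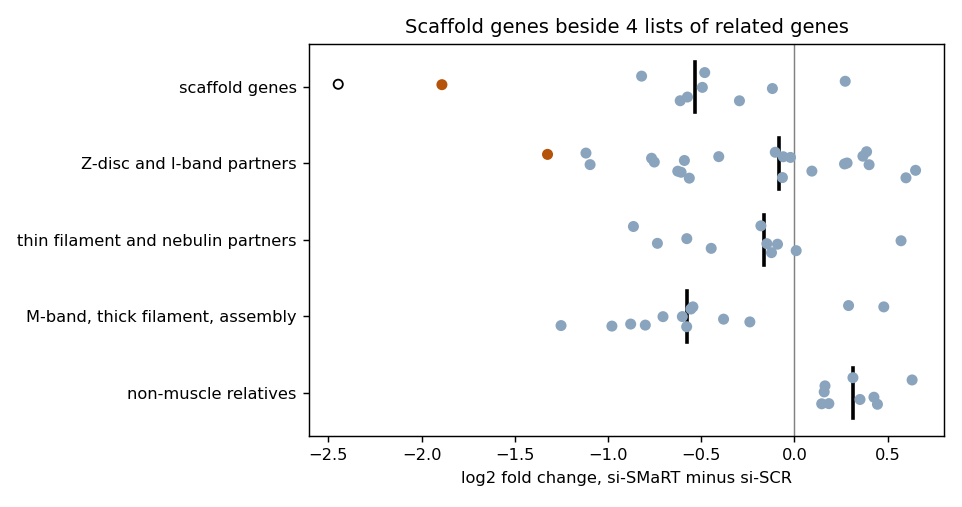
Log2 fold change, si-SMaRT minus si-SCR, of the scaffold genes and of 4 lists of related genes; each point is a gene and black bars are medians. The open point is Igfn1, which was chosen for this contrast and is shown with no test. Orange points passed an adjusted p of 0.05 in limma: Mybpc2 among the scaffold genes and Csrp3 among the Z-disc and I-band partners. The medians are -0.53, -0.08, -0.16, -0.58 and 0.31 from top to bottom.

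Markers of the state of the cells are given beside the scaffold genes, and their part in the differences was not tested. All 10 markers of skeletal muscle differentiation had a row, and their summed RPKM was between 7937 and 8274 in si-SCR and between 4029 and 5887 in si-SMaRT, with none past the threshold and 6 at an unadjusted limma p under 0.05, beside 9.09% of all rows. Of the 10, 8 had a negative log2 fold change, while Myh8 (0.60) and Myod1 (0.26) had a positive one. Of 13 markers of undifferentiated or dividing myoblasts 12 had a row, with summed RPKM from 168 to 180 in si-SCR and from 183 to 216 in si-SMaRT. Of these 12 genes 7 had a positive and 5 a negative log2 fold change, the lowest being Heyl (-0.75) and Id2 (-0.58). Only Id3 (1.60, limma, Benjamini-Hochberg adjusted p = 0.023) and Ccnd1 (1.36, adjusted p = 0.036) passed, both higher, and Pax7 had no row. In bulk RNA, fewer differentiated cells and less RNA per cell cannot be told apart, and this holds for each scaffold gene above. Smooth muscle markers were present for 3 of 4 genes, at a summed 17.9 to 23.3 RPKM in si-SCR and 12.6 to 23.7 in si-SMaRT, with no row for Myh11. Of the markers of fibroblasts, heart muscle and macrophages 1 gene each had a row, at no more than 1.13 RPKM, and endothelial and adipocyte markers had none.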

How the data were processed

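Total RNA of 4 C2C12 samples and 3 pull-down libraries were sequenced. According to the study's methods, the authors used Trimmomatic for trimming, Bowtie 2 to discard rRNA and tRNA, TopHat2 for alignment to GRCm38, and counted Ensembl genes with HTSeq in a strict intersection mode from stranded libraries. The authors removed genes of low CPM and calculated RPKM with TMM library sizes in edgeR. The deposited table holds these RPKM values. The pull-down files hold p-values that the authors obtained with Piranha in bins of 200 bases, and which covariate each list used is not stated in the files.

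The genes and lists were chosen with earlier results of these data known. All 10 scaffold genes, their relatives, and of each list the genes past the threshold and the 2 lowest and 2 highest were named, except 1 gene that is not reported here. log2(RPKM + 0.1) was fitted with limma 3.58.1 in R 4.3.3 (eBayes with trend) over the rows whose mean RPKM reached 0.5. P-values were adjusted by Benjamini-Hochberg, and the fit was tested on simulated data. Whole reads were recovered for 11641 of 11642 rows. For Neb, Actn2, Myom1, Mybpc2 and Ldb3 the number of reads is the lowest that gives a whole gene length. GENCODE M21 gave the exons and, with GRCm38, their GC content. In 1 alternative the GC trend was taken out by loess of span 0.3. A peak was placed on a gene where at least 1 base overlapped an exon on the same strand. Counting limits only part of the precision, since replicates number 2.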

Additional observations from a re-analysis of the deposited data

How the results depend on the processing

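Depth limited Mybpc2 and Tcap, with 5 to 46 reads, and peaks have no replicates. The 56 calls became 593 with the GC trend removed, 37 under quantile normalization and 108 with voom on the recovered reads. Leaving out 1 sample gave 24 to 2908 calls, with the lone sample assumed to vary like the others. The scaffold genes called, 2 as reported with Igfn1 counted, numbered 0 at a minimum mean RPKM of 5, which left 5 of them tested. They numbered 1 with a pseudocount of 1, 1 under quantile normalization, 2 with voom and 3 with the GC trend removed. The count also rose or fell with 1 sample left out, depending on the sample. The related lists, 1 call as reported, gave 15 with the GC trend removed, 0 without the variance trend, 0 under quantile normalization, 3 with voom and 0 to 26 with 1 sample left out.

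Whether the replicate numbers pair the samples is not known. The same-numbered deviations had a correlation of -0.36 over all rows tested. That cannot decide it, since within the 2 groups the samples differed along GC content in opposite directions. With the replicate block there were 96 calls, 2 among the scaffold genes and 0 in the related lists, and with the block and the GC trend removed 266, 3 and 6. A crossed pairing, added after seeing the data, gave 487, 3 and 7.

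Of the lnc-SMaRT peaks on scaffold genes 4 of 7 had a p under 0.001 and 3 had an exonic overlap of at least 50% of the peak. For LacZ these were 2 and 1 of 6. With 1 sample left out Actn2 ran from -0.75 to 0.16, Tcap from -1.32 to 0.35 and Ldb3 from -0.25 to 0.01. Signs turned for Actn2 (0.16), Tcap (0.35) and Ldb3 (0.0026) without si-SMaRT replicate 2, and for Ldb3 (0.01) without si-SCR replicate 2. The median of the 10 genes ran from -0.867 to -0.309 with 1 sample left out. Igfn1 stayed between -3.09 and -1.63 in the 14 alternatives that tested it. The cause of these shifts was not tested.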
